A study of Mus musculus with 34 samples.

Results

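The question addressed was which genes differ from control in the same direction in both mutant genotypes of mouse neural progenitor cells (NPCs). The 6 mutant NPC libraries were pooled and set against the 5 control NPC libraries, which makes 11 of the 28 RNA-seq libraries and of the 34 samples of the series. Control cells carried the genotype 129Sv +/+ (n = 5). Deletion cells carried 129Sv df/+, a heterozygous deletion of the 7qF3 locus (n = 3, replicates 1, 3 and 5). Duplication-deletion cells carried 129Sv df/dp, the deleted chromosome together with a duplicated one (n = 3, replicates 2, 4 and 5), so every mutant library carries 1 deleted chromosome while the total copy number of the locus differs between the genotypes. All lines carry the background strain label C57BL/6N. They are embryonic stem cell (ESC) lines, passed through an epiblast stem cell stage, and NPCs committed to the ventral midbrain were harvested at day 5 of differentiation. The labels do not say how many lines or clones stand behind a genotype, or whether replicates were separate cultures, so a p-value here covers the spread among the libraries and no more. For the duplication-deletion NPCs a description label names the deletion alone, while title and genotype label name both rearrangements, and the latter were used.

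The 7qF3 locus of chromosome 7 corresponds to human 16p11.2, a region linked to autism when a copy is lost or gained. The series title points to the protocadherin (Pcdh) genes. The clustered protocadherins are cell-surface adhesion molecules encoded in 3 neighbouring arrays, Pcdha, Pcdhb and Pcdhg. Neurons transcribe different combinations of their members, and the resulting proteins bind like to like, which lets a neuron tell its own processes from those of other neurons. Pcdha and Pcdhg genes join a variable exon to shared constant exons, while each Pcdhb gene stands alone.

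Total counts ran from 48630461 to 78814037 in replicates 1 to 4 while the 3 libraries numbered 5 had 23561794 (control), 24053970 (deletion) and 19311982 (duplication-deletion) and are called the shallow libraries here. The most abundant entry held 20.6% to 32.6% of each total. Levels below are TMM-scaled CPM, that is counts relative to the library total. Markers of the labelled cell type were present: 7 neural progenitor genes summed to 1695 to 2835 CPM per library and 6 ventral midbrain genes to 168 to 739 CPM. Most of the progenitor sum was Vim (813 to 2326 CPM) and Nes (394 to 918 CPM). Duplication-deletion replicate 5 had the highest progenitor sum, with Vim at 2326 CPM. It also had the lowest Nes (394 CPM), Sox2 (45.3 CPM) and ventral midbrain sum (168 CPM) of all NPC libraries. The 4 naive pluripotency markers in the file summed to 2.11 to 5.05 CPM, most of it Esrrb (1.03 to 4.28 CPM), with Nanog at 0 to 0.196 CPM, and the 3 primed markers to 10 to 15.4 CPM, most of it Dnmt3b. Klf5, of the longer naive pluripotency list, had 4.04 to 22.6 CPM. The 3 blood and endothelial markers summed to at most 1.1 CPM. The 5 neuron markers summed to 356 to 799 CPM in controls and 432 to 1186 CPM in mutants, with 3 mutant libraries above all controls. By the level of the 7qF3 genes, 2 libraries stood between the genotypes: the median interval gene was at 75.4% of the control mean in deletion replicate 5, against 51.1% and 50.3% in the other deletion libraries, and at 68.1% in duplication-deletion replicate 2, against 113% in both others. Groups follow the labels, and whether these 2 libraries hold mixed cells or carry another's label was not tested. Results without them are given for some counts and genes, among them Pcdhb19, Rnf17 and Col5a2, and not for Pcdhgb2.

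Mutant NPCs of both genotypes had higher transcript levels of the Pcdhb genes than control NPCs and lower levels of Rnf17, a tudor-domain protein of germ cells, of Pcdhgb2, an isoform of the Pcdhg array, and of Col5a2, a fibrillar collagen chain. No gene passed the threshold of the main test, so these differences are given as values. In the edgeR quasi-likelihood test 0 of 16783 genes had an adjusted p below 0.05, and the smallest adjusted p was 0.259, for Pcdhb19. Unadjusted p was below 0.05 for 422 of the 16783 genes. Of these, 418 had the same sign in both genotypes, 262 higher in mutants (1.56% of genes tested) and 156 lower (0.93%). Chance alone gives about 1 in 20 genes an unadjusted p below 0.05, which is more than were found here. The same sign in both genotypes, whatever the p, was found for 32.3% of genes in the higher and 25% in the lower direction; the deletion and duplication-deletion contrasts share their 5 controls. The median log2 fold change over all genes was 0.04. Other tools gave other counts. DESeq2 called 47 genes with a shared direction, 35 higher (0.207% of genes with an adjusted p) and 12 lower (0.0708%), from 665 genes at an unadjusted p below 0.05; limma-voom called 1, Rnf17, from 655. Of the 47 DESeq2 calls 16 were protocadherin entries, and 5 rested on counts in 2 libraries only. The authors' deposited table gave 122 genes (0.844% of those listed) an adjusted p below 0.05 in the deletion NPCs, and 54 (0.37%) in the duplication-deletion NPCs. Of these, 11 were in both lists with the same sign, 9.02% and 20.4% of each. The higher ones were Pcdhb16, Pcdhb17, Pcdhb19, Pcdhb21 and Pcdhb22. The lower ones were Col5a2, Rnf17, Gm5124, Zfp951 and the entries AK157947 and mKIAA1682, which had counts in only 2 control libraries each.

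Across the Pcdhb array the mutant libraries were higher gene by gene. Of 22 genes in the file 21 were tested, Pcdhb1 being at 0 throughout, and all 21 had positive fold changes in both genotypes. The median log2 fold change was 1.88 in the pooled contrast, with a range of 1.24 to 3.40, against 0.04 over all genes. It was 1.61 in deletion and 1.91 in duplication-deletion cells. Unadjusted p was below 0.05 for 18 of the 21, beside 1.56% of all genes, and 4 (Pcdhb17, Pcdhb19, Pcdhb21 and Pcdhb22) had every mutant library above every control, as did 0.191% of all genes. DESeq2 called 12 of the 21. Because the series title names the family, the array may have been chosen on these libraries and is not independent evidence of its direction. In bulk RNA more cells that transcribe a gene and more RNA per cell cannot be told apart, and the part of the higher neuron markers in the Pcdhb result was not tested.

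The array lies on mm9 chromosome 18, and its tested genes with a position in the authors' deposited table run from Pcdhb2, starting at 37454494, to Pcdhb22, ending at 37681073. Summed over all its genes, the controls had 38.9, 44.5, 88.8, 66.3 and 28.7 CPM in replicates 1 to 5. Deletion libraries had 192, 247 and 88.8 CPM, and duplication-deletion libraries 160, 322 and 185 CPM. The lowest mutant, deletion replicate 5, lay at 88.84 CPM and the highest control, replicate 3, at 88.76 CPM, so the groups were separate by a narrow margin. The ratio of the group means was 3.73.

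Pcdhb19, at 37656652 to 37661365, had the smallest p of all genes. It had 7, 8.19, 9.31, 10.3 and 6.52 CPM in the controls, 28.7, 34.1 and 13.7 CPM in deletion libraries, and 21.4, 32.4 and 21.9 CPM in duplication-deletion libraries. All 6 mutants lay above all 5 controls, and the shallow deletion library was the lowest of them. The log2 fold change was 1.62 ± 0.247 (SE; edgeR adjusted p = 0.259; DESeq2 adjusted p = 7.13e-07), with 1.63 in deletion and 1.61 in duplication-deletion. The call depended on how the libraries that stand apart were treated: edgeR adjusted p was 0.0159 with a term for the shallow libraries (1.67), 0.0703 without them (1.74), and 0.022 without deletion replicate 5 and duplication-deletion replicate 2 (1.83).

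Pcdhb17 stood at 4.02, 5.82, 9.58, 6.36 and 2.98 CPM in controls, at 25.3, 35.6 and 13.6 CPM in deletion and at 14, 29.1 and 19.1 CPM in duplication-deletion libraries, again without overlap. Its log2 fold change was 1.98 ± 0.344 (edgeR adjusted p = 0.268; 0.0354 with the term for the shallow libraries, 0.19 without them). Pcdhb21 had 3.06 ± 0.89 CPM (SD, n = 5) in controls and 9.24 ± 2.4 CPM (SD, n = 6) in mutants, and Pcdhb22 4.89 ± 0.716 CPM and 13.7 ± 4.86 CPM. Both pairs of groups were separate, with log2 fold changes of 1.59 ± 0.275 and 1.49 ± 0.264 (edgeR adjusted p = 0.268 each). Pcdhb16 (1.89 ± 0.418) and Pcdhb18 (1.70 ± 0.372) overlapped in single libraries: control replicate 3 was above the shallow deletion library for both.

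The genes differed in how evenly the genotypes shared the higher level. Pcdhb11 had 1.94, 2.76, 8.4, 4.35 and 0.755 CPM in controls, 10.4, 15.6 and 6.69 CPM in deletion and 26.7, 49.3 and 32.2 CPM in duplication-deletion libraries. The duplication-deletion libraries were the highest here, and control replicate 3 was above 1 deletion library. Its log2 fold change was 2.68 ± 0.631, with 1.58 in deletion and 3.30 in duplication-deletion. Pcdhb13 had the largest value of the array, 3.40 ± 1.09, on a control level of 0.467 ± 0.523 CPM. The members with p above 0.05 were Pcdhb2 (1.88 ± 1.04), Pcdhb8 (1.24 ± 0.733) and Pcdhb9 (1.38 ± 0.865), all at about 1 CPM or below in controls. No Pcdhb gene differed between the mutant genotypes in the edgeR test of that difference (lowest adjusted p = 1.00). RSEM assigns reads that fit several near-identical Pcdhb genes by estimate, so single members are less certain than the sum.

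**Figure D1:**
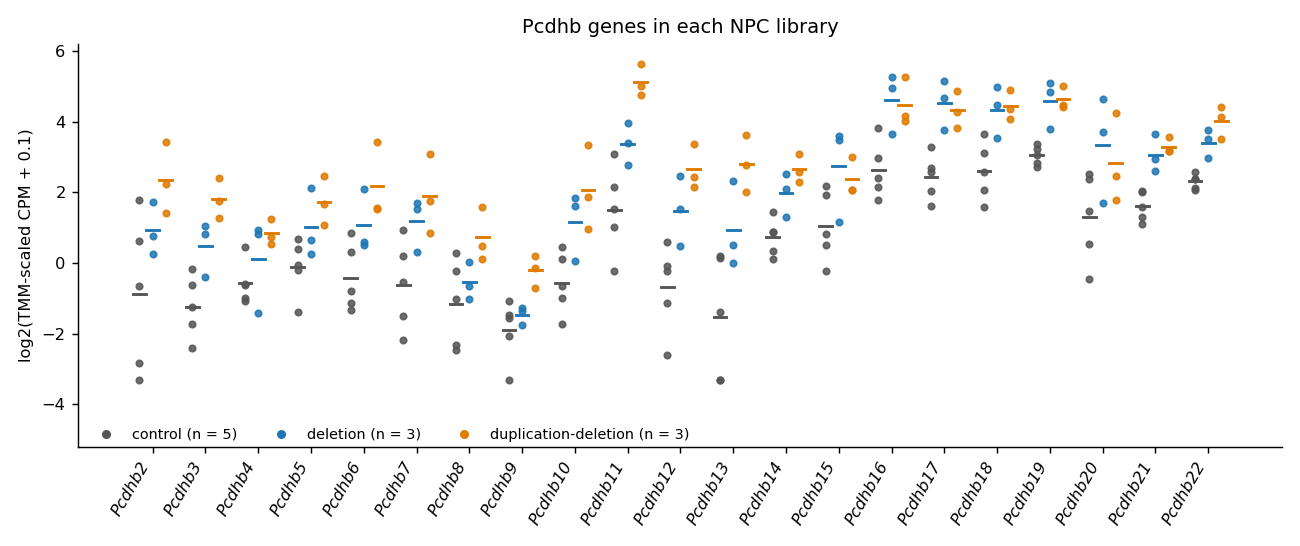
Level of each Pcdhb gene in every NPC library, as log2 of TMM-scaled CPM plus 0.1 (vertical axis), for 5 control, 3 deletion and 3 duplication-deletion libraries; points are libraries and short lines are group means. The mutant means lie above the control mean for the 21 genes tested, and Pcdhb17, Pcdhb19, Pcdhb21 and Pcdhb22 show no overlap between mutants and controls.

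The Pcdha array was also higher in mutants, at a much lower level. Its 14 genes summed to 11, 12.6, 13.1, 12.1 and 7.75 CPM in controls, 21.7, 22.6 and 18.3 CPM in deletion and 22.1, 41 and 68.4 CPM in duplication-deletion libraries, with all 6 mutants above all controls. Taken singly, 0 of the 14 genes had every mutant above every control, beside 0.191% of all genes. Of the 14 genes tested 13 were positive in both genotypes (92.9%, against 32.3% of all genes) and 1 negative. In the higher direction 8 had p below 0.05 (1.56% of all genes). The median log2 fold change was 2.34 (1.37 in deletion, 3.00 in duplication-deletion). Pcdha11 had 0.923 ± 0.307 CPM in controls and 2.86 ± 1.44 CPM in mutants (1.62 ± 0.467), and Pcdha5 0.301 ± 0.256 CPM and 2.51 ± 2.39 CPM (3.02 ± 0.874). Pcdha10 had the smallest p of the array, on counts near 0 in controls: it had 0 to 0.119 CPM there, 0 to 0.352 CPM in deletion and 1.25 to 7.42 CPM in duplication-deletion libraries. Without the shallow libraries 4 of the 14 had p below 0.05.

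The Pcdhg array as a whole did not follow. Its 22 genes summed to 170 to 337 CPM in controls and 131 to 381 CPM in mutants, the ratio of means was 1.00 and the median log2 fold change 0.09, with -0.67 in deletion and 0.24 in duplication-deletion. In both genotypes 7 members were positive (31.8% against 32.3% of all genes) and 4 negative (18.2% against 25%). Pcdhga3 had 4.42, 6.88, 3.94, 5.03 and 4.45 CPM in controls against 16.6, 20.9 and 8.53 CPM in deletion and 11, 15.6 and 7.52 CPM in duplication-deletion libraries (1.44 ± 0.293, edgeR adjusted p = 0.556), and no library overlapped. In the same array Pcdhgb2 went the other way. It had 36.8, 24.1, 31.5, 61 and 28.9 CPM in controls, 3.51, 4.21 and 2.82 CPM in deletion and 8.58, 20.2 and 15.3 CPM in duplication-deletion libraries. Every mutant was below every control, and the deletion libraries were the lowest. The log2 fold change was -2.003 ± 0.495 (edgeR adjusted p = 0.798; -3.37 in deletion, -1.31 in duplication-deletion). Pcdhga4 had 1.08 ± 0.372, with overlap between the groups. Counts of these isoforms include an estimated share of constant-exon reads. Of the protocadherins outside the arrays, 5 of 11 were positive and 2 negative in both genotypes, and Pcdh17 alone had p below 0.05 (6.7 ± 3.36 CPM against 15.5 ± 11 CPM, 1.21 ± 0.506).

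Outside the protocadherins the genes with the smallest p in the higher direction were a mixed group. Among those with a mean of at least 5 CPM, the 12 with the smallest p were named in each direction. In the higher direction 8 were protocadherins, and 7 of the 12 had no overlap, beside 0.191% of all genes. Choice by p favours such separation, so that count is not independent of the choice. Rnf123 encodes a ubiquitin ligase subunit. It had 7.1, 5.34, 5.66, 8.19 and 4.25 CPM in controls, 12.8, 21.4 and 11.3 CPM in deletion and 10, 18.2 and 12.3 CPM in duplication-deletion libraries (1.23 ± 0.258, edgeR adjusted p = 0.615), so all mutants were above all controls. Auh encodes an RNA-binding mitochondrial hydratase of leucine breakdown. It had 7.3 ± 1.59 CPM in controls, 13.1 ± 2.21 CPM in deletion and 12.7 ± 0.724 CPM in duplication-deletion libraries, without overlap (0.82 ± 0.198, edgeR adjusted p = 0.761). Zfp663, a zinc finger gene, had 9.46 ± 3.19 CPM in controls and 20.1 ± 4.51 CPM in mutants (1.09 ± 0.268), with 1 mutant within the control range. Rspo2 encodes a secreted enhancer of Wnt signalling. It had 5.01, 5.96, 5.78, 7.31 and 13.6 CPM in controls, 26.4, 18.2 and 14.4 CPM in deletion and 9.51, 18 and 18.9 CPM in duplication-deletion libraries (1.23 ± 0.309), and the shallow control was above 1 mutant. DESeq2 called all 12 of the higher and 5 of the 12 lower genes (Rnf17, Frem2, Pcdhgb2, Acot1 and Ano1). Of all genes with an adjusted p it called 0.207% in the higher and 0.0708% in the lower direction. The named genes were chosen by edgeR p on the same libraries, so these DESeq2 calls are not independent of the choice.

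Rnf17, on mm9 chromosome 14 at 57021534 to 57143868, had the largest change of the named lower genes. Controls had 13.7, 14.5, 10.4, 12.3 and 18.4 CPM. Deletion libraries had 0.143, 0.206 and 0.665 CPM and duplication-deletion libraries 3.07, 0.721 and 0.19 CPM, all far below the lowest control. The log2 fold change was -4.02 ± 0.709 (edgeR adjusted p = 0.268; DESeq2 adjusted p = 3.32e-07), with -5.44 in deletion and -3.34 in duplication-deletion. Without deletion replicate 5 and duplication-deletion replicate 2 it was -5.41 (edgeR adjusted p = 0.00568), and Rnf17 and Pcdhb19 were the 2 genes past the threshold. Col5a2, on chromosome 1 at 45431176 to 45560127, had 74.7, 210, 144, 89.9 and 179 CPM in controls, 4.48, 1.09 and 0.822 CPM in deletion and 44.3, 15.8 and 7.28 CPM in duplication-deletion libraries. The groups did not overlap. The log2 fold change was -6.00 in deletion and -2.63 in duplication-deletion, and the edgeR test of that difference did not pass (adjusted p = 0.42). The pooled value was -3.49 ± 0.861 (edgeR adjusted p = 0.798), and -4.28 (edgeR adjusted p = 0.266) without the same 2 libraries. For both genes duplication-deletion replicate 2 was the highest mutant. In a fit that gives each genotype its own mean, the pooled contrast of Rnf17 (-4.39, edgeR adjusted p = 0.0399), Col5a2 (-4.31, 0.0399) and Pcdhgb2 (-2.34, 0.0366) passed the threshold.

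The remaining lower genes differed by less. Frem2, an extracellular matrix protein of epithelial basement membranes, had 51.5 ± 10 CPM in controls and 28.1 ± 6.78 CPM in mutants (-0.87 ± 0.194, edgeR adjusted p = 0.615), with 1 mutant above the lowest control. Zfp951 had 8.41 to 14.8 CPM in controls, 2.5 to 5.64 CPM in deletion and 0.0952 to 1.8 CPM in duplication-deletion libraries, without overlap (-2.01 ± 0.601). Tspan6, a tetraspanin of the X chromosome (-0.67 ± 0.2), and 2700062C07Rik (-0.56 ± 0.173) were also without overlap. Acot1, a cytosolic acyl-CoA thioesterase with close paralogs next to it (-1.93 ± 0.512), Ano1, a calcium-activated chloride channel (-2.18 ± 0.593), and Tnc, the matrix protein tenascin C (-1.61 ± 0.44), overlapped between groups. So did Col4a5, a basement membrane collagen (-0.81 ± 0.239), and Cdkn1c, an imprinted cell cycle inhibitor. Cdkn1c had 136, 529, 165, 302 and 453 CPM in controls, 182, 180 and 91.1 CPM in deletion and 49.5, 35.4 and 55.4 CPM in duplication-deletion libraries (-1.68 ± 0.488). The 3 duplication-deletion libraries and deletion replicate 5 lay below every control.

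**Figure D2:**
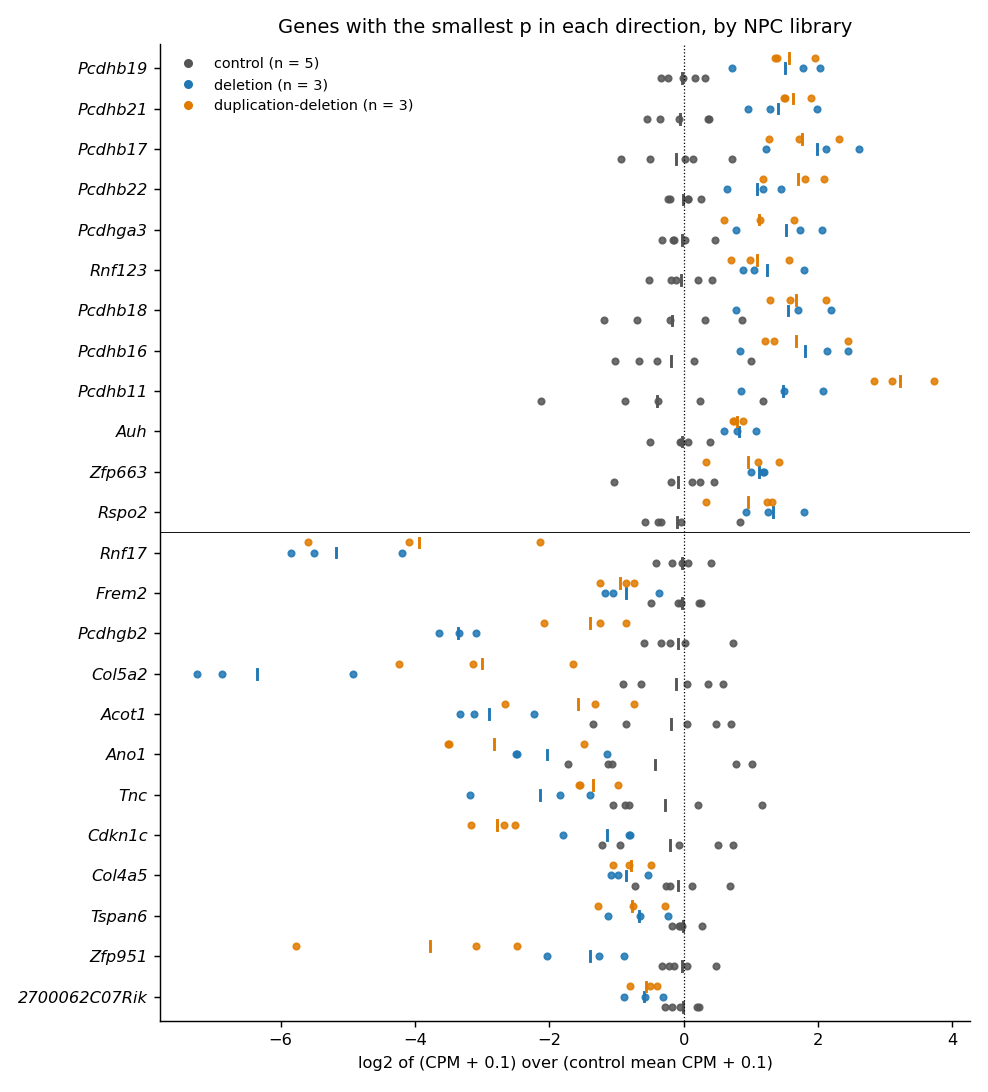
The 12 genes with the smallest p in each direction, shown for each NPC library as log2 of CPM plus 0.1 over the control mean CPM plus 0.1 (horizontal axis); points are libraries, short lines group means, the dotted line the control mean. Rnf17 and Col5a2 reach furthest to the left. Mutants and controls do not overlap for 7 of the 12 higher and 6 of the 12 lower genes (0.191% and 0.137% of all genes). Choice by p favours such separation.

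Across all genes tested, 55 had no overlap between the 6 mutants and 5 controls, 32 higher (0.191%) and 23 lower (0.137%), and 6 of the 55 were clustered protocadherins. A mean of at least 5 CPM was reached by 12 of them in each direction. Random labels on 6 and 5 libraries would separate about as many genes or more, so the count alone does not set the mutants apart. The genes named next, all without overlap, were chosen after their values were seen. Zfp764 is a zinc finger gene on mm9 chromosome 7 at 134547182 to 134550336, beyond the interval gene Sept1, which ends at 134361959. It had 0.726, 2.32, 0.307, 0.322 and 0.0795 CPM in controls, 3.62, 4.36 and 3.8 CPM in deletion and 5.73, 5.77 and 7.14 CPM in duplication-deletion libraries (2.73 ± 0.645, edgeR adjusted p = 0.761). Gm5124 on the X chromosome had 1.9 ± 0.637 CPM in controls and 0 to 0.517 CPM in mutants (-2.94 ± 0.711). Ctsc, a lysosomal protease, had 2.57 ± 1.58 CPM in controls and 0.529 ± 0.199 CPM in mutants (-2.28 ± 0.464), and Igfbp7, a secreted growth factor binding protein, 3.31 ± 2.73 CPM and 0.773 ± 0.249 CPM (-2.10 ± 0.494). On the X chromosome Sytl4, a granule docking factor, was higher (0.186 ± 0.229 CPM against 1.39 ± 0.486 CPM, 2.88 ± 0.861), while Tspan6 next to it was lower.

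The 7qF3 interval itself was for the most part not shared by the genotypes. In each library the median of 22 interval genes, as a percentage of the control mean, was 101, 82.7, 112, 89.6 and 114 in controls, 51.1, 50.3 and 75.4 in deletion and 68.1, 113 and 113 in duplication-deletion libraries. Deletion replicate 5 and duplication-deletion replicate 2 stood apart from the other libraries of their genotype. Of 28 interval genes tested 4 were lower (14.3%, against 25% of all genes) and 1 higher (3.57%, against 32.3%) in both genotypes, and Aldoa and Ino80e, both lower, had p below 0.05 (0.93% of all genes). Aldoa, a glycolytic enzyme, had 176 ± 36.5 CPM in controls, 91.8 ± 27.1 CPM in deletion and 141 ± 31.8 CPM in duplication-deletion libraries (-0.60 ± 0.234, edgeR adjusted p = 1.00). Ino80e, a chromatin remodelling subunit, had -0.60 ± 0.25 and 1 duplication-deletion library within the control range. Maz, a zinc finger factor, had -0.42 ± 0.214, with -0.70 in deletion and -0.18 in duplication-deletion. For Taok2, Mapk3, Ppp4c and Kctd13 the genotypes had opposite signs: Taok2, a kinase of dendrite growth, had -0.91 in deletion and 0.09 in duplication-deletion, Mapk3, the kinase ERK1, -0.91 and 0.17, Ppp4c, a phosphatase subunit, -0.90 and 0.03, and Kctd13, a ubiquitin ligase adaptor, -0.51 and 0.22.

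**Figure D3:**
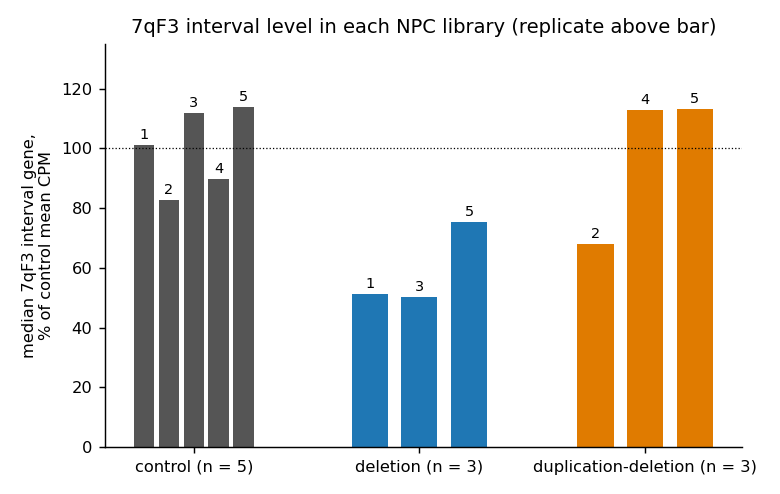
Median level of the 22 interval genes with a control mean of at least 1 CPM, as a percentage of the control mean, for each NPC library (bars start at 0; the replicate number stands above each bar). Deletion replicates 1 and 3 lie at 51.1% and 50.3%, deletion replicate 5 at 75.4% and duplication-deletion replicate 2 at 68.1%.

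Genes of regional identity moved unevenly. Isthmic organiser genes pattern the boundary of midbrain and hindbrain. A list of these and Pax genes had 8 of 13 members lower in both genotypes (61.5% against 25% of all genes) and 0 higher. The median of the list was -0.64, and 4 members had p below 0.05 (0.93% of all genes). Pax5 had 3.47, 2.05, 4.81, 3.8 and 1.23 CPM in controls, 0.287, 0.103 and 0.744 CPM in deletion and 1.7, 1.37 and 0.761 CPM in duplication-deletion libraries (-1.89 ± 0.6), with the shallow control within the mutant range. En1, a midbrain homeobox factor, had 13.2 ± 10.3 CPM in controls, 0.681 to 2.66 CPM in deletion and 4.42 to 8.89 CPM in duplication-deletion libraries (-1.66 ± 0.648). Pax7 (-2.92 ± 0.946) and Wnt1 (-1.07 ± 0.452), chosen after their values were seen, were the other 2. The ventral midbrain list had 7 of 18 members positive (38.9% against 32.3% of all genes) and 3 negative (16.7% against 25%) in both genotypes. En1 and Wnt1 were again the 2 at p below 0.05. Its leading factors varied widely between libraries. Lmx1a, a determinant of dopaminergic progenitors, had 23.9 to 173 CPM in controls and 29.8 to 201 CPM in mutants (0.55 ± 0.566), and Foxa2 29.1 to 149 CPM and 27.6 to 119 CPM (0.11 ± 0.438). For Lmx1a the deletion libraries (132, 138 and 65.7 CPM) lay above every control but replicate 4, and duplication-deletion libraries had 38.2, 201 and 29.8 CPM. For Foxa2 the deletion libraries did so by a narrow margin, at 55.1 CPM in replicate 5 against 53.8 CPM in control replicate 5. Otx2 differed little (93.2 ± 16 CPM against 88.3 ± 19 CPM). Of the dopaminergic genes Aldh1a1 alone had p below 0.05 (-1.97, on 1.8 ± 1.18 CPM in controls).

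Forebrain factors had 5 of 17 members at p below 0.05 in the higher direction, beside 1.56% of all genes, yet the genotypes were unequal, with a median of 2.63 in deletion and -0.29 in duplication-deletion. Eomes, a factor of intermediate progenitors, had 0.313 to 1.31 CPM in controls, 7.6, 10.8 and 3.21 CPM in deletion and 1.63, 2.42 and 0.285 CPM in duplication-deletion libraries (2.26 ± 0.729). The other 4 were Emx2, Dlx1, Dlx2 and Dlx5, named after their values were seen; Dlx1 reached 35.1 CPM in deletion replicate 1 and 0.381 to 3.53 CPM in duplication-deletion libraries, against 0.596 to 3.16 CPM in controls. T, a mesoderm factor, had 3.34, 11.8, 7.6, 15.6 and 4.97 CPM in controls, 23.1, 25.9 and 23.1 CPM in deletion and 7.71, 66.5 and 7.42 CPM in duplication-deletion libraries (1.56 ± 0.573). By contrast, the mesoderm and endoderm list as a whole had 7 of 12 members lower and 2 higher in both genotypes (median -0.48), beside 25% and 32.3% of all genes. The other markers of that lineage were low: Sox17, Gata4 and Mixl1 stayed at or below 1.35 CPM and Gata6 at or below 2.28 CPM (means of 0.849 CPM in controls and 0.333 CPM in mutants).

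Neuronal genes leaned to the higher side. Of 18 pan-neuronal genes 16 were higher in both genotypes and 0 lower (88.9% against 32.3% of all genes), with a median of 0.62. Gap43, a growth cone protein, and Stmn3, a microtubule regulator, had p below 0.05, as did 1.56% of all genes in that direction. Gap43 had 56.6, 54.7, 41.6, 60.7 and 41.1 CPM in controls, 140, 37.3 and 53 CPM in deletion and 96.1, 109 and 74.2 CPM in duplication-deletion libraries (0.74 ± 0.291). The duplication-deletion libraries were above all controls and the deletion libraries were spread around them. Without the shallow libraries 5 pan-neuronal genes had p below 0.05. Of 16 neurexin, neuroligin and contactin genes, which join synapses and axons, 11 were higher in both genotypes (68.8%) and 0 lower, with a median of 0.38. Among proneural and Notch genes 12 of 22 were higher (54.5%) and 4 lower (18.2%), beside 32.3% and 25% of all genes. In that list 2 had p below 0.05: Id4 (0.95 ± 0.338) and the proneural factor Neurog2 (33.5 ± 17.2 CPM against 65.1 ± 32.9 CPM, 0.96 ± 0.41). Neural progenitor genes had 4 of 16 higher (25%) and 2 lower (12.5%), both under the shares of all genes. Sox1 (-0.89 ± 0.408) was the only one at p below 0.05 (0.93% of all genes in the lower direction). The summed neuron markers of 3 mutant libraries lay above every control, as given above, and their part in these counts was not tested.

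Extracellular matrix genes leaned to the lower side. Of 27 collagen and laminin genes 14 were lower and 2 higher in both genotypes (51.9% lower against 25% of all genes), the median was -0.40, and 6 lower and 1 higher had p below 0.05 (0.93% and 1.56% of all genes). Besides Col5a2 and Col4a5 the lower ones included Lama1 (64.7 ± 16.5 CPM against 46.5 ± 10.9 CPM, -0.48 ± 0.209), Col4a1 (112 ± 44.2 CPM against 68.7 ± 30.4 CPM, -0.71 ± 0.312) and Col4a6, and the higher one was Col9a1 (1.74 ± 0.59), all but Col5a2 and Col4a5 chosen after their values were seen. Without deletion replicate 5 and duplication-deletion replicate 2, 4 of the 27 had p below 0.05. Wnt pathway genes had 9 of 15 members lower (60% against 25% of all genes) and 1, Rspo2, higher (6.67% against 32.3%). Ccnd1, a cyclin of cell cycle entry, had 354 ± 97.3 CPM in controls and 207 ± 72.3 CPM in mutants (-0.77 ± 0.268), and Myc 11.5 ± 3.98 CPM and 7.06 ± 2.29 CPM (-0.70 ± 0.288). Boc, a Hedgehog co-receptor, had -0.96 ± 0.332. Of the 10 genes in the Hedgehog list 4 were lower (40%) and 2 higher (20%) in both genotypes. Unc5c, a netrin receptor of axon guidance, had 75.7 ± 43.4 CPM in controls and 31.7 ± 15.9 CPM in mutants (-1.25 ± 0.409). The axon guidance list did not lean lower: 13 of 33 members were higher (39.4%) and 9 lower (27.3%) in both genotypes. In that list 2 higher and 1 lower had p below 0.05.

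The other lists held few members at p below 0.05. Imprinted genes had 2 higher (Zim1 and Dlk1) and 2 lower (Cdkn1c and Grb10) of 35, beside 1.56% and 0.93% of all genes. Grb10, a growth-restraining adaptor, had 582, 668, 465, 615 and 775 CPM in controls, 231, 319 and 577 CPM in deletion and 324, 140 and 77.1 CPM in duplication-deletion libraries (-1.16 ± 0.392), with 1 deletion library inside the control range. Over all genes 32.3% were higher and 25% lower in both genotypes. Ribosomal protein genes had 26 of 51 lower (51%) and 6 higher (11.8%) in both genotypes, a median of -0.10 and 0 at p below 0.05. Proliferation genes (1 higher, 8 lower of 20), cholesterol synthesis (3 higher, 0 lower of 24), CTCF, cohesin and Smchd1 (1 higher, 0 lower of 11) and DNA methylation genes (4 each way of 12) also had 0 at p below 0.05. The interferon list had 9 of 18 lower and 3 higher, with Oasl2 alone at p below 0.05, on 0.477 ± 0.382 CPM in controls.

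**Figure D4:**
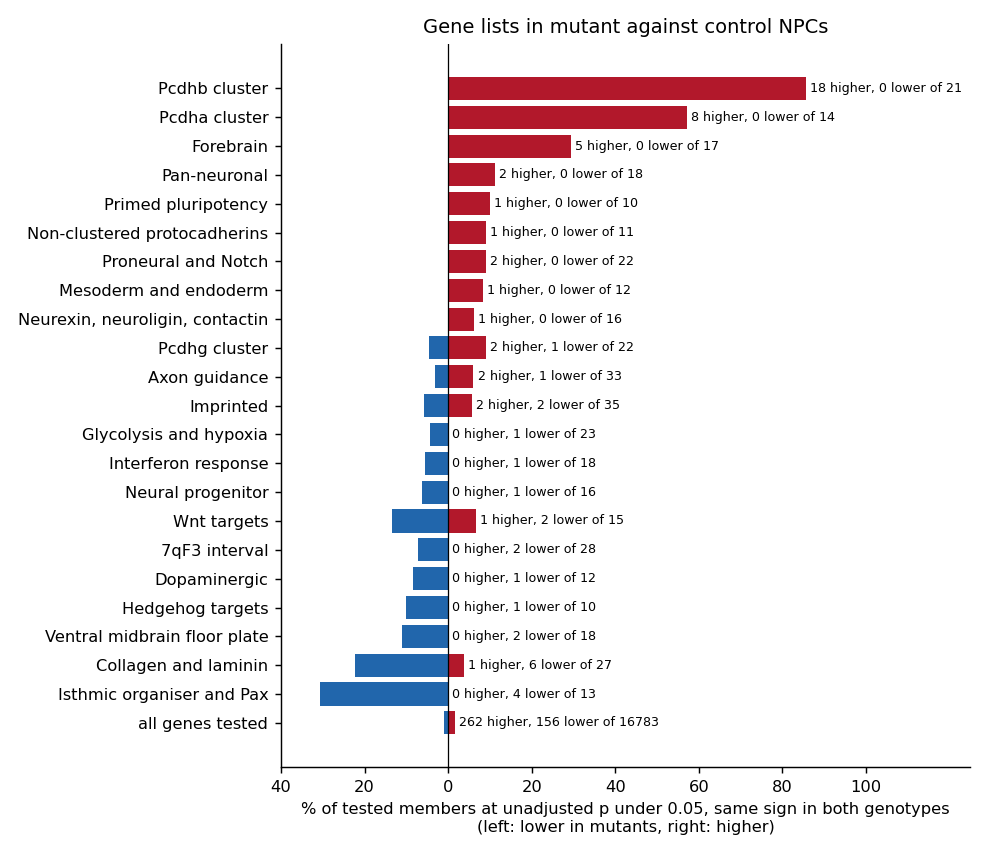
Share of the tested members of each gene list at an unadjusted edgeR p below 0.05 with the same sign in both mutant genotypes, in % (left: lower in mutants, right: higher), with the counts written beside the bars and all genes tested at the bottom. The Pcdhb list (18 of 21) and the Pcdha list (8 of 14) reach furthest to the right. The isthmic organiser and Pax list (4 of 13) and the collagen and laminin list (6 of 27) are among those reaching to the left.

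The contrast of both mutants with control was repeated in ESCs and in neurons, in libraries that the NPC contrast did not use (ESCs: 3 control, 3 deletion, 3 duplication-deletion; immature neurons at day 16: 4, 2 and 2, of the same genotypes). Whether the same lines or cultures gave the stages is not stated in the labels. With edgeR 0 of 16470 genes passed in ESCs, with 80 at an unadjusted p below 0.05 (0.279% higher, 0.206% lower), and 0 of 17931 in neurons, with 552 at p below 0.05 (1.96% higher and 1.08% lower with the same sign). DESeq2 called 1 and 18. No NPC effect differed from the ESC or the neuron effect past the threshold in the edgeR tests of that difference, with 599 and 766 of 19996 genes at an unadjusted p below 0.05.

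In neurons the lower levels of Rnf17 and Pcdhgb2 were found again. Rnf17 had 3.29 to 8.47 CPM in control and 0.505 to 1.02 CPM in mutant neurons (-3.09 ± 0.457, edgeR adjusted p = 0.336), and Pcdhgb2 39.5 to 102 CPM and 6.33 to 13.4 CPM (-2.92 ± 0.398, edgeR adjusted p = 0.318), both without overlap, as were 0.943% of all genes in that direction. In ESCs Rnf17 was higher than in the other stages and not lower in mutants, at 95.7 CPM in control and 113 CPM in mutant cells (0.24 ± 0.22); the NPC effect minus the ESC effect had an edgeR adjusted p of 0.145. Col5a2 was not lower in mutant neurons (113 ± 55 CPM against 146 ± 57.8 CPM, 0.37 ± 0.388; edgeR adjusted p = 1.00 for the difference from NPCs), nor was Frem2 (0.29 ± 0.373).

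Pcdhb genes were not tested in ESCs, where none passed the filter on low counts. In neurons 20 of the 21 were positive, 19 in both genotypes, with a median of 0.64 and 8 at p below 0.05, beside 1.96% of all genes. Pcdhb17 had 25.5 ± 8.54 CPM in control and 45.3 ± 4.95 CPM in mutant neurons (SD, n = 4 each), without overlap (0.83 ± 0.276), Pcdhb16 35.3 ± 9.08 CPM and 63.3 ± 7.37 CPM (0.84 ± 0.243), and Pcdhb11 18 ± 6.39 CPM and 45.6 ± 19.2 CPM (1.34 ± 0.359). Pcdhb19, first in NPCs, had 39.1 ± 10.9 CPM and 48.6 ± 7.34 CPM in neurons (0.31 ± 0.251). The fold change was larger in NPCs than in neurons for 20 of 21 genes, and for no gene did the difference pass (lowest edgeR adjusted p = 1.00). Pcdha genes had a median of 0.21 in neurons, with 6 of 14 higher and 2 lower in both genotypes (23.1% and 30.2% of all genes).

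In the pooled contrast all 12 named higher genes were on the same side in neurons, and 10 of the 12 lower ones. Both genotypes were on that side for 10 of the 12 higher and 8 of the 12 lower genes (23.1% and 30.2% of all genes); Pcdhga3, Zfp663, Acot1 and 2700062C07Rik had opposite signs in the 2 genotypes. In ESCs both genotypes were on that side for 1 of the 3 higher genes tested and 4 of the 12 lower ones (33.2% and 35.4% of all genes). Rspo2 had 8.48 ± 5.06 CPM in control and 23.9 ± 5.5 CPM in mutant neurons, without overlap (1.49 ± 0.386), and Auh 0.86 ± 0.383. Of the 55 genes without overlap in NPCs, 32 higher and 21 lower were tested in neurons. Of these, 5 higher and 3 lower had no overlap in the same direction there, where 0.926% and 0.943% of all genes had none. In ESCs 0 of the 22 and 0 of the 19 tested did (0.231% and 0.486% of all genes). Those in neurons were Pcdhb17, Zfp764 (0.0401 to 2.51 CPM against 3.46 to 7.94 CPM, 2.36 ± 0.984), Acot6, 3110007F17Rik and AK042124 in the higher direction and Rnf17, Pcdhgb2 and Gm5124 (7.92 ± 4.33 CPM against 1.07 ± 0.396 CPM, -2.89 ± 0.512) in the lower. Zfp764 had -0.09 ± 0.314 in ESCs, at 5.04 CPM in control and 4.73 CPM in mutant cells. Of the regional genes Pax5 had -2.47 and Wnt1 -1.57 in neurons, En1 -0.10 and Eomes 0.69; T had 2.91. The pan-neuronal list, higher in mutant NPCs, had a median of -0.29 in neurons, with 0 of 18 higher and 11 lower in both genotypes, and the collagen and laminin list had 0.14.

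**Figure D5:**
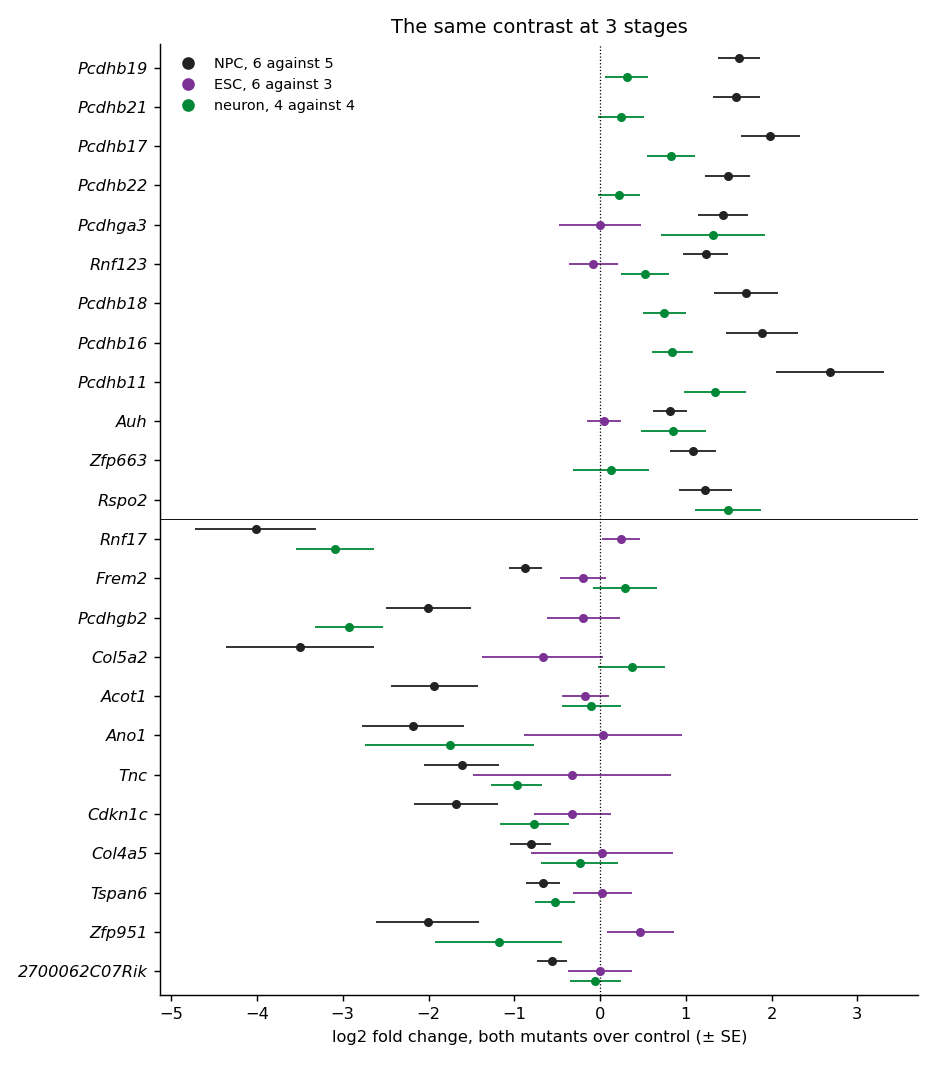
Log2 fold change of both mutants over control, with its SE, for the 12 genes of smallest p in each direction in NPCs, shown in NPCs (6 against 5 libraries), ESCs (6 against 3) and neurons (4 against 4); genes below the filter of a stage have no point. Rnf17 and Pcdhgb2 lie left of 0 in NPCs and neurons, Col5a2 lies left of 0 in NPCs and not in neurons, and Pcdhb genes have no ESC point.

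The sizes of the shared differences were compared between the genotypes in the edgeR fit of all 3. Deletion and duplication-deletion NPCs differed past the threshold for 4 of 16783 genes (0.0238%), 1700001L05Rik, 2210016F16Rik, Airn and Zim1, none of which is among the 24 genes named by p. Zim1, an imprinted zinc finger gene, had 0.322 to 1.43 CPM in controls, 0.86 to 0.978 CPM in deletion and 28.1, 24.5 and 17.4 CPM in duplication-deletion libraries, so that its pooled value of 3.94 ± 1.06 came from 1 genotype although both signs were positive. Among the 24 the lowest adjusted p of the genotype difference was 0.244, for Pcdhgb2.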

How the data were processed

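Total RNA libraries from a stranded kit were read as paired ends, per the labels' protocols. The authors deposited expected counts per gene and library, aligned by STAR 2.6.0c and estimated by RSEM 1.3.0 against mm9, per the submitters' processing notes; non-whole values occur in 6392 of 29968 entries. The authors' deposited table of comparisons gives log2 fold changes of mutant over control with standard errors and an adjusted p-value per gene; the submitters' processing notes name DESeq2 1.22.2; its mean and test statistic columns, scores from the same tool per the file headers, were not used. That tool's design, and whether strand was used in counting, are not given in the sources used here. Gene positions (mm9) come from that deposited table, and chromosome contacts were not analysed here.

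Counts were rounded and 92 spike-in entries left out, which leaves 29876. The main test was that of edgeR 4.0.16, run in R 4.3.3: filterByExpr by genotype, TMM scaling and a robust quasi-likelihood fit of mutant against control, two-sided, with Benjamini-Hochberg adjustment over all genes and a threshold of 0.05. SE is the log2 fold change over the root of F. A change counted as shared where the deletion, duplication-deletion and pooled coefficients had 1 sign. Differences between stages were interaction terms in a joint fit of the 28 libraries, and no pair of replicates was a copy of another. Alternatives were DESeq2 1.42.0, limma-voom (limma 3.58.1), a fit of 3 genotypes, other scaling and filters, a replicate block, a term for the shallow libraries, and leaving out libraries.

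The genes named were 6 of the interval (Aldoa, Mapk3, Kctd13, Taok2, Maz, Ppp4c), then, as no gene passed the threshold, the 12 with the smallest p in each direction among genes with 1 sign and a mean of at least 5 CPM, and the member with the smallest p in each of 39 lists of 720 genes. Of these, 704 are in the file and 33 are in several lists. Values of some list members are not reported here. The members and lists were chosen with earlier results of these data known. The tests were checked on simulated counts with the same spread for all genes. That check does not cover spread that differs between genes, or libraries that stand apart.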

Additional observations from a re-analysis of the deposited data

Results flagged for a closer look

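In 60 tests, of 30 genes each within the control and the mutant NPC group, 4 values stood apart from the rest of their group by Dixon's test. Chance alone gives about 1 in 20. Rspo2 was high in control replicate 5, at 13.6 CPM against 5.01 to 7.31 CPM in the other controls. Rnf17 and Col5a2 were highest among the 6 mutants in duplication-deletion replicate 2, at 3.07 and 44.3 CPM, still below every control. Tspan6 was high in control replicate 2, at 104 CPM.

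The effects of the 2 mutant genotypes differed past the edgeR threshold for 4 genes, given as deletion minus duplication-deletion log2 fold change: 1700001L05Rik with -3.29 (adjusted p = 0.0326), 2210016F16Rik with -3.52, Zim1 with -4.69 and the imprinted antisense RNA Airn with 8.64 (adjusted p = 0.0269 each). Counts of Airn cannot be told apart from those of the gene it overlaps if strand was not used in counting.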

How the results depend on the processing

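The count of genes with a shared change past the threshold in NPCs, 0 in the main edgeR test, was 47 with DESeq2, 1 with limma-voom, 3 in the fit of 3 genotypes, 2 with a term for the shallow libraries, 2 without deletion replicate 5 and duplication-deletion replicate 2, and 0 to 1 when single libraries were left out. Without the shallow libraries it stayed at 0. The labels do not say that replicate numbers mark a shared batch, and not every same-numbered pair of libraries deviated together, so the main test has no block: of 7 pairs 5 had a correlation of deviations from 0.176 to 0.481, the 3 among the shallow libraries and the control and duplication-deletion pair numbered 4 at 0.388 or above, and the other 2 had 0.0694 and -0.03; 5 of 11 libraries correlated best with their own number. With the replicate block 9 genes passed, all higher: 6 Pcdhb genes (Pcdhb16 to Pcdhb21), Fop, and the neuronal genes Scg2 (adjusted p = 0.0408) and Slc17a6 (adjusted p = 0.0167). For deletion against duplication-deletion NPCs (4 genes) the count was 106 with DESeq2, 1 with limma-voom, 2 with the replicate block and 0 to 8 without single libraries. The 55 genes without overlap became 444 without the shallow libraries and 202 without deletion replicate 5 and duplication-deletion replicate 2, where fewer libraries have to be separate. Members of lists at p below 0.05 moved from 8 to 4 for Pcdha without the shallow libraries, from 2 to 5 for pan-neuronal genes in both settings, and from 7 to 4 for collagen and laminin genes without deletion replicate 5 and duplication-deletion replicate 2; for Pcdhb they were 18 in both. DESeq2 called 1 gene in ESCs and 18 in neurons. The difference of the NPC from the ESC effect had 1 gene with limma-voom and 2 without the shallow libraries, and that from the neuron effect 1 with limma-voom. Of 1381 values of the 63 named genes, 1344 kept their direction and side of the threshold, 33 passed it in addition, and 4 reversed, all of Kctd13: 0.000957 with the replicate block, 0.036 without deletion replicate 5 and duplication-deletion replicate 2, 0.0899 without control replicate 4 and 0.06 without deletion replicate 5, in a range of -0.297 to 0.0899 without single libraries. The causes were not tested. The alternatives on overlap and list counts, and the fit without deletion replicate 5 and duplication-deletion replicate 2, were chosen after seeing the data. At a control level of 1 CPM or less the shallow libraries hold few counts, which limits what can be read from Pcdha members.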
